A study of Mus musculus with 123 samples.

Results

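The genes described here are 10 transcription factors that specify and maintain the heart muscle lineage: Nkx2-5, Gata4, Gata5, Gata6, Tbx5, Tbx20, Mef2c, Hand1, Hand2 and Isl1. They were chosen by name, are all present in the count table, and make up 10 of its 23337 genes. They were followed in single cells from hearts of mice carrying an αMHC-GFP transgene, in which the α-myosin heavy chain promoter drives green fluorescent protein, with E9.5 and E12.5 naming the embryonic day and P1 the first day after birth. All 3 groups carried the reporter, so no group lacked it, and the cells were sorted for GFP fluorescence before capture on a Fluidigm C1 chip. The sort limits every statement to cells in which this promoter was or had recently been active. Because the labels do not tie cells to embryos or pups, a time point is 1 sample, and no test between time points was possible. Values over cells are given with their SD as a description.

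In the forming heart these proteins act together on shared enhancers and promoters. Nkx2-5 is a homeodomain protein of the early heart field, the GATA proteins are zinc finger factors that bind it, Tbx5 and Tbx20 are T-box factors, Mef2c is a MADS-box factor of muscle, Hand1 and Hand2 are basic helix-loop-helix factors with different left and right ventricular distributions, and Isl1 marks progenitors of the second heart field and is switched off as they differentiate. Gata4, Mef2c and Tbx5 are also the trio that is used to convert fibroblasts towards a cardiomyocyte state.

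A cell was used where at least 2000 genes had a count, which held for 112 of the 123 deposited cells: 42 of age E9.5, 29 of age E12.5 and 41 of age P1. Shares of cells were measured after each cell had been thinned at random to 100000 counts, which left 42, 29 and 38 cells. Cell titles fall into naming sets whose meaning the labels do not give: 14 cells titled C and 28 titled N530 at E9.5, 20 titled C, 8 titled N523 and 1 titled E12-5b at E12.5, and only titles with C at P1. Total counts per cell ran from 268301 to 6351742 in the youngest cells, from 148258 to 7711355 in the E12.5 cells and from 69522 to 327360 in the P1 cells, and the median number of genes found at equal depth was 3740.5, 3601 and 2841. As a check of the label, 6 or more of 10 sarcomere and muscle genes (Tnnt2, Actc1, Ttn and others) were found in 39 of 42 cells at E9.5, 29 of 29 at E12.5 and 38 of 38 at P1. The summed level of those genes was low, at 120 to 480 CPM (counts per 1000000), in the 3 E9.5 cells that missed this mark, at 3410 CPM in another E9.5 cell and at 290 CPM in 1 P1 cell, which carried 8970 CPM of endothelial genes. Among markers of other cell types, the summed endothelial, fibroblast and epicardial lists had medians of 10 CPM or less but reached 1600, 3840 and 2800 CPM at E9.5, where 2, 1 and 1 of the 42 cells had 1000 CPM or more, and the part of these cells in the results was not tested. Erythroid genes reached at most 90 CPM, macrophage genes at most 410 CPM and endoderm genes at most 80 CPM in any cell, and no neural or neural crest gene was found at any time point. Smooth muscle genes, which early cardiomyocytes also express, had medians of 4290, 2230 and 1125 CPM.

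Positions are given for 9 of the factors. In the GENCODE M21 annotation of GRCm38, Gata5 occupies chr2:180325133-180334699, Tbx5 chr5:119832668-119885219, Hand2 chr8:57320983-57324633, Tbx20 chr9:24718138-24774303, Hand1 chr11:57828705-57832818, Gata4 chr14:63198922-63271692 and Nkx2-5 chr17:26838664-26845009. Mef2c (chr13:83504034-83667080) and Isl1 (chr13:116298281-116309689) share a chromosome. The exons of Hand2 overlap those of the antisense transcript Hand2os1 over 461 bases, or 19.6% of its exonic length, and those of Gata5 overlap Gata5os over 258 bases, or 7.87%. Gata6 shares 93 exonic bases, or 1.43%, with another antisense transcript. None of the antisense genes is in the count table and strand is not stated for the counting, so reads within the shared bases cannot be assigned to either gene.

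The 250 bases before the RefSeq start of 3 factors are shown because these genes took different courses: Gata5 and Isl1 had no count at P1, while Hand2 was found at all 3 time points. They are given from 5′ to 3′ on the gene's strand in GRCm38.p6, with capitals at each match to a GATA core site (the letters AGATAA, the same ending in G as AGATAG, and with another first base TGATAA, which ends in G as TGATAG, on either strand): chr2:180334680-180334929, minus strand, for Gata5, chr13:116309689-116309938, minus strand, for Isl1, and chr8:57320733-57320982, plus strand, for Hand2.
Gata5: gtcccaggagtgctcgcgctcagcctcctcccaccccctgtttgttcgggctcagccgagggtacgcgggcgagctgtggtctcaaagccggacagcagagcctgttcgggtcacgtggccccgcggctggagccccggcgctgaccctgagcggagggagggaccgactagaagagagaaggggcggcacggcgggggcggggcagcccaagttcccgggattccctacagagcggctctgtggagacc
Isl1: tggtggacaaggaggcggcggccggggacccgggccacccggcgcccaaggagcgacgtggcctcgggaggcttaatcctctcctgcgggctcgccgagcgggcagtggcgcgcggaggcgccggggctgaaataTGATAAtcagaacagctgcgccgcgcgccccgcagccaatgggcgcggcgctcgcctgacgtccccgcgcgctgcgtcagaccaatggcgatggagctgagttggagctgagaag
Hand2: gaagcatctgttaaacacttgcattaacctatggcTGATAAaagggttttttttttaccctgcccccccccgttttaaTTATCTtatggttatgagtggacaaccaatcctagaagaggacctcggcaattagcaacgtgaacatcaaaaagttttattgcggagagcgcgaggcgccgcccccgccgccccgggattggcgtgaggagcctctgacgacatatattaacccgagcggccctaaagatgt
Gata5 had no match, Isl1 had 1, lying 115 to 110 bases before its start, and Hand2 had 2, at 215 to 210 and at 172 to 167 bases. A GATA match was present in 26.5% of all 32851 windows of this length, so its presence or absence does not set these genes apart. The other letters searched, on both strands, were TNAAGTG for NKX2-5 (10.1% of windows) and AGGTGT for T-box factors (11.8%), and neither was in these 3 windows. The Gata5 and Isl1 windows were rich in G and C, at 70% and 71.2%, against 49.2% for Hand2 and a median of 52.4% over all windows. RefSeq windows were at hand for 6 of the factors, and a match describes letters only.

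A typical cell held several factors at once, and the mean number was lower at each later time point. At 100000 counts, 5.50 ± 1.88 (SD, n = 42 cells) of the 10 factors were found per E9.5 cell, 4.38 ± 1.80 (n = 29) per E12.5 cell and 3.63 ± 1.02 (n = 38) per P1 cell. The range narrowed from 1 to 9 factors at E9.5 and 0 to 9 at E12.5 to 2 to 5 at P1. The distributions overlapped, and each step was smaller than 1 SD over cells. At least 6 factors were present in 21 of 42 E9.5 cells (50%, exact binomial interval 34.2 to 65.8%), 8 of 29 E12.5 cells (27.6%, 12.7 to 47.2%) and 0 of 38 P1 cells (0 to 9.25%). These intervals, like all those given here, are at 95% and cover counting error only. They leave out differences between animals and between naming sets. The libraries had no molecular identifiers, so counts are reads and not molecules.

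**Figure D1:**
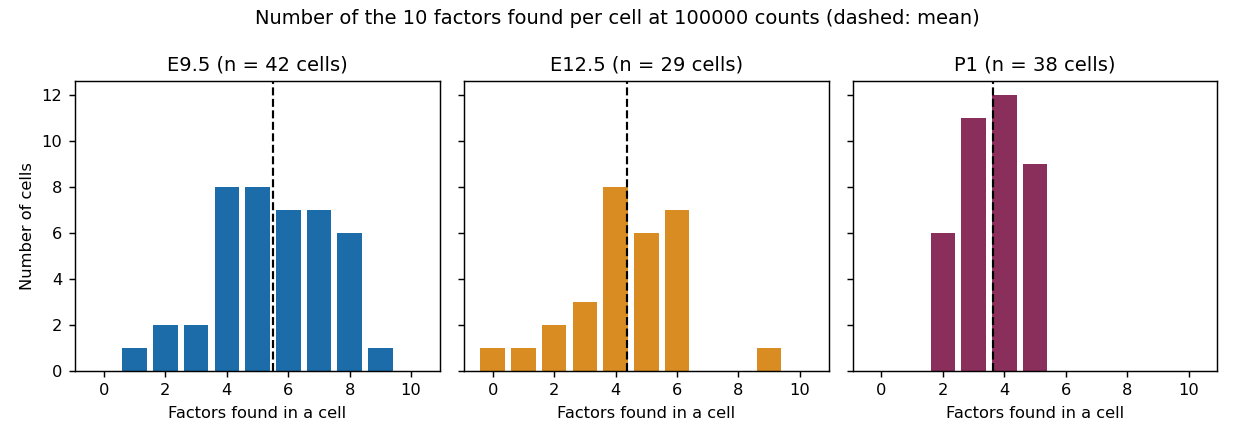
Number of the 10 factors found in a cell after thinning to 100000 counts (horizontal axis) against the number of cells (vertical axis) at E9.5, E12.5 and P1, with the mean of 5.50, 4.38 and 3.63 as a dashed line. No P1 cell lies above 5 factors, whereas E9.5 and E12.5 cells reach 9.

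The naming sets held this order only in part. The mean number of factors was 5.93 in the E9.5 cells titled C and 5.29 in those titled N530. The 3 E9.5 cells below the sarcomere gene mark were all titled C, and values of the E9.5 C cells include them. The 11 C cells that passed averaged 6.73. At E12.5 it was 4.80 in the C cells and 3.38 in the 8 N523 cells, so the N523 cells averaged below the P1 cells at 3.63. Of those 8 cells, 4 held fewer than 3 factors and 1 held 9. The number of genes found per thinned cell was also lower later, and over the cells of a time point its Spearman rho with the number of factors was 0.45, 0.24 and 0.33 in order of age (n = 42, 29 and 38). The sets differed in this as well: rho was -0.41 in the E9.5 C cells and -0.04 in the E12.5 C cells, against 0.65 in the N530 and 0.57 in the N523 cells. The part of overall gene number in the lower factor counts was not tested. With the 5 cells of low sarcomere gene level left out, the means were 5.71, 4.38 and 3.68, an alternative chosen after seeing the data.

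Which factors went missing differed from gene to gene. Tbx20 was found in 83.3%, 86.2% and 86.8% of thinned cells in order of age, where the E12.5 value joined 20 of 20 C cells with 4 of 8 N523 cells. Gata6 was found in 69%, 75.9% and 92.1%, but among C cells alone in 85.7%, 90% and 92.1%, with lower shares in the N530 (60.7%) and N523 cells (3 of 8). Mef2c went from 92.9% through 82.8% to 71.1%, Tbx5 from 69% through 34.5% to 26.3%, Gata4 from 61.9% through 55.2% to 28.9%, and Nkx2-5 from 42.9% through 24.1% to 21.1%. Hand2 stood at 33.3%, 44.8% and 36.8%. Gata5 was in 38.1%, 3.45% and 0% of cells, Hand1 in 40.5%, 24.1% and 0%, and Isl1 in 19.0%, 6.90% and 0%. The exact intervals of E9.5 and P1 did not overlap for Gata5 (23.6 to 54.4% against 0 to 9.25%), Hand1 (25.6 to 56.7% against 0 to 9.25%) and Tbx5 (52.9 to 82.4% against 13.4 to 43.1%). All 3 were lower at P1, beside 7.25% of the 12159 tested genes lower and 3.65% higher by the same rule. Tested genes needed a count in only 3 kept cells, and the rarest of them could not have intervals apart. These shares are therefore not a like background for the factors. Among C cells alone the intervals of Gata5 and Hand1 still lay apart, and those of Tbx5 overlapped (35.1 to 87.2% against 13.4 to 43.1%). For the other 7 factors the E9.5 and P1 intervals overlapped, though only near their ends for Gata4 (45.6 to 76.4% against 15.4 to 45.9%), Isl1 (8.60 to 34.1% against 0 to 9.25%), Gata6 (52.9 to 82.4% against 78.6 to 98.3%) and Mef2c (80.5 to 98.5% against 54.1 to 84.6%).

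**Figure D2:**
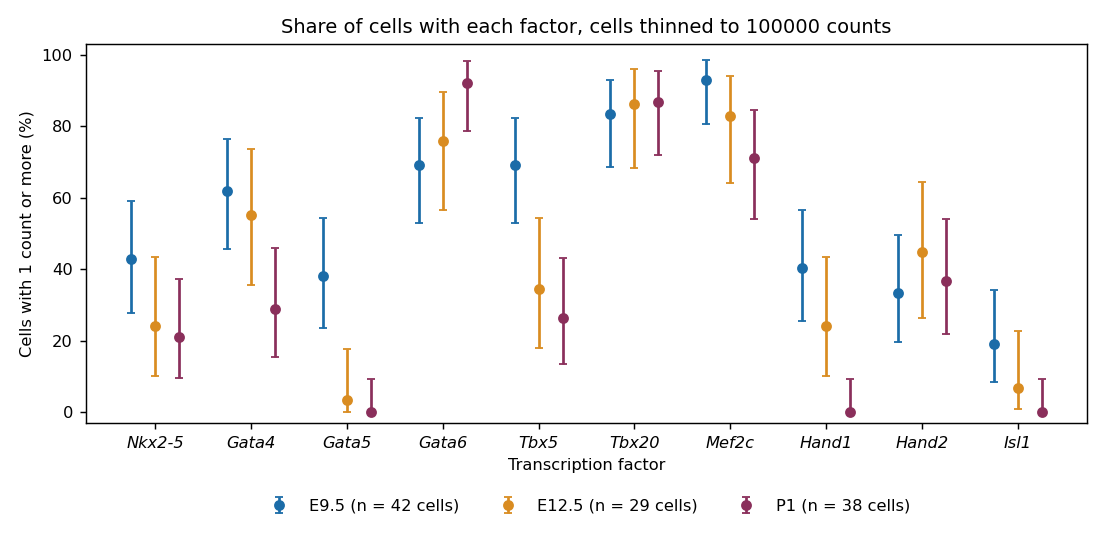
Share of thinned cells with 1 count or more (vertical axis, percent) for each factor (horizontal axis) at E9.5 (n = 42 cells), E12.5 (n = 29) and P1 (n = 38), with exact binomial intervals at 95% as bars. Tbx20 stays near the top at all 3 time points, and Gata5, Hand1 and Isl1 lie at 0 at P1.

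To compare levels, each cell's CPM was averaged over the cells of a time point. A gene was called lower or higher where that mean differed by 2-fold or more, in one direction in every combination of naming sets of 6 or more cells, with the higher mean at 5 CPM or more. Between E9.5 and E12.5, 3 of the 10 factors (Gata5, Mef2c and Isl1) were called lower and 0 higher, against 16.1% lower and 7.34% higher among all 12159 genes tested. Between E12.5 and P1, 2 (Hand1 and Isl1) were lower and 0 higher, against 18.1% and 15.8%. From E9.5 to P1, 5 (Nkx2-5, Gata5, Mef2c, Hand1 and Isl1) were lower and 0 higher, against 30.8% and 15.7%. With 10 genes, 1 call is 10 percentage points, so the number of lower calls was within 2 genes of the background share in all 3 comparisons. The median log2 ratio of the factors was -0.31, -0.63 and -0.96 in these comparisons, beside -0.22, -0.33 and -0.62 over all genes. Other scalings of the time points shift every gene alike, by 0.43, -0.26 and 0.17 on the log2 scale with TMM and by 0.54, -0.18 and 0.37 with DESeq2 size factors. They move the share of higher calls among all calls between E9.5 and E12.5 from 31.2% to 53.6% and 59.2%, and under them Mef2c is no longer called there.

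**Figure D3:**
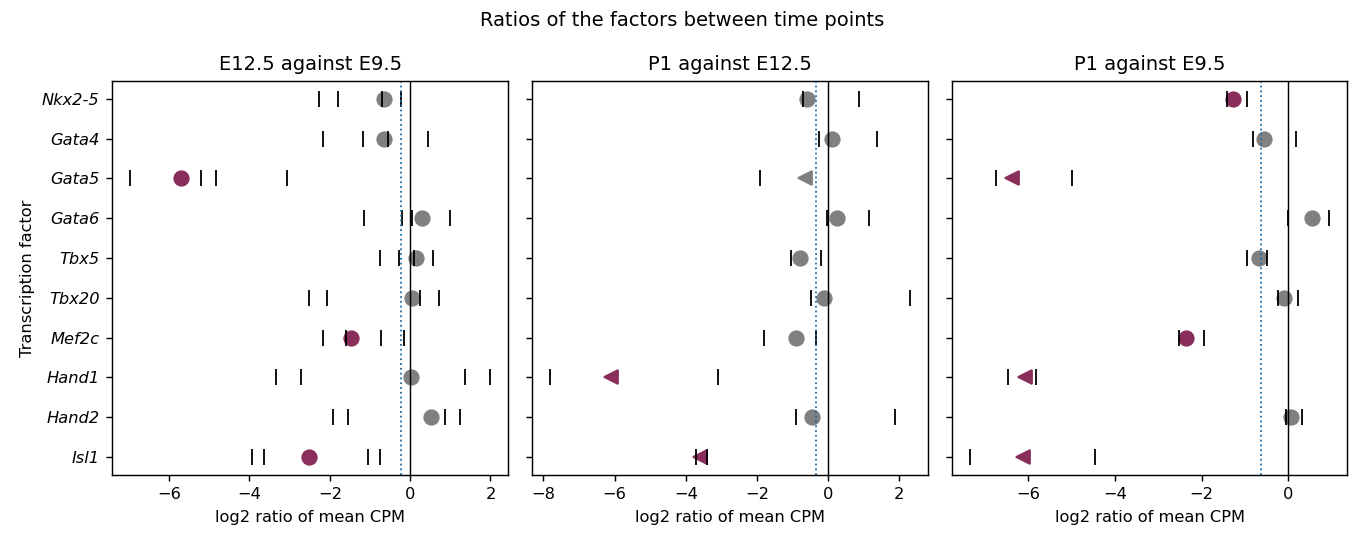
Log2 ratio of mean CPM (horizontal axis) of each factor in the 3 comparisons, with filled symbols for the mean over all cells (purple where called, grey where not, triangles where 1 group had no count and the ratio is a bound), black ticks for each combination of naming sets and a dotted line at the median of all tested genes. Gata5, Hand1 and Isl1 lie farthest to the left in P1 against E9.5.

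Nkx2-5, the homeodomain factor, was expressed at a low level. Over E9.5 cells its CPM had a lowest, median and highest value of 0, 2.23 and 405, over E12.5 cells 0, 0 and 86.9, and over P1 cells 0, 0 and 88.9. The groups overlapped throughout. The means were 18.4 ± 62.6 (SD, n = 42), 11.6 ± 24 (n = 29) and 7.65 ± 17.8 CPM (n = 41), and the ratio of P1 to E9.5 was -1.26 on the log2 scale with an SD of 0.33 over the naming set combinations. One E9.5 cell supplied 52.6% of the E9.5 sum, and without the highest cell of each time point the log2 ratio was -0.67 and the call was lost, as it was among C cells alone (-0.94) and with DESeq2 size factors (-0.90). Where cells needed 3000 genes it was -2.39.

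The 3 GATA factors, which bind the same core sequence, differed from one another. Gata4 ranged from 0 over a median of 17.0 to 1128 CPM at E9.5, from 0 over 6.77 to 516 at E12.5 and from 0 over 0 to 1464 at P1. Its means of 111 ± 214, 71.0 ± 127 and 75.8 ± 247 CPM differed by less than 2-fold, while the share of cells with it was lowest at P1. In P1 cells that had it, its median was 59.6 CPM, against 32.6 in such E9.5 cells and 51.7 in those of them titled C, but the lowest value that could be found was higher in the shallower P1 cells. In addition, 1 P1 cell supplied 47.1% of the P1 sum. Without the highest cell of each time point Gata4 was called lower at P1 than at E9.5 (log2 ratio -1.08), as it was where cells needed 3000 genes (-1.55), while among C cells alone the ratio was 0.18.

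Gata5 had the narrowest time window of the GATA factors among the 10. It ranged from 0 over a median of 0.63 to 522 CPM at E9.5, with a mean of 40.9 ± 101. At E12.5 it was found in 2 of 29 unthinned cells, at up to 14.9 CPM, with a mean of 0.78 ± 3.07, and none of the 20 C cells had a count. All 41 P1 cells were at 0, in 6819717 counts. The level at E12.5 was 52.4-fold lower than at E9.5 (log2 ratio -5.71, SD 1.60 over 4 combinations). One of the 2 positive E12.5 cells supplied 65.9% of the E12.5 sum, and without the highest cell of each time point the log2 ratio was -6.72. At P1 it was at least 82.9-fold lower than at E9.5 (log2 ratio -6.37), with the floor set at 3 counts over the group. This bound was -4.99 among C cells alone and -5.38 where cells needed 3000 genes. Both E9.5 sets had it, at means of 15.7 CPM in C and 53.5 CPM in N530.

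Gata6, which is expressed in heart and endoderm, had a higher mean at each later time point without being called. Its lowest, median and highest values were 0, 78.7 and 691 CPM at E9.5, 0, 132 and 582 at E12.5 and 0, 185 and 1367 at P1, and its means were 152 ± 177, 187 ± 182 and 224 ± 266 CPM. The P1 to E9.5 log2 ratio of 0.56 lay within its SD of 0.68 over naming sets: the E9.5 C cells already averaged 224 CPM and the N530 cells 115 CPM. Counting the GATA factors per thinned cell, 8 of 42 E9.5 cells held all 3, and no E12.5 or P1 cell did. Exactly 1 was found in 26 of 38 P1 cells (68.4%), against 9 of 42 at E9.5 (21.4%) and 11 of 29 at E12.5 (37.9%).

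Of the T-box factors, Tbx20, a repressor and activator needed for chamber growth, had rank 1 or 2 of the 10 by mean TPM at every time point. Its lowest, median and highest CPM were 0, 246 and 2897 at E9.5, 0, 267 and 1772 at E12.5 and 0, 205 and 2006 at P1. The groups covered the same range, and the means of 438 ± 641, 448 ± 495 and 409 ± 444 CPM gave no ratio of 1.5-fold or more. The E12.5 naming sets differed: all 20 C cells had Tbx20, at a mean of 570 CPM, whereas the 8 N523 cells averaged 83.6 CPM.

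Tbx5, a factor of the atria and left ventricle, ranged from 0 over a median of 34.8 to 604 CPM at E9.5, from 0 over 2.59 to 1077 at E12.5 and from 0 over 0 to 859 at P1. Fewer cells had it later, but the highest values did not step down. Its means were 87.5 ± 137, 96.5 ± 233 and 55.2 ± 179 CPM, and no ratio reached 2-fold. Without the highest cell of each time point the means were 74.9, 61.5 and 35.1 CPM, and Tbx5 was called lower at P1 than at E9.5 (log2 ratio -1.09), as it was by TPM (-1.12). Among C cells alone it was called lower at P1 than at E12.5 (-1.05). At P1 its thinned counts went with the summed atrial genes (Spearman rho 0.66 over 38 cells) and against the ventricular ones (-0.59), and at E12.5 the values were 0.37 and -0.54 over 29 cells. At E9.5 they were 0.15 and 0.13 over 42 cells. All points of a time point share the same libraries, and these values are a description.

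Mef2c, the MADS-box factor, was found in more E9.5 cells than any other of the 10. The lowest, median and highest values were 0, 329 and 5142 at E9.5, 0, 91.2 and 1743 at E12.5 and 0, 37.2 and 900 at P1, so that the groups overlapped while their medians and maxima stepped down. The means were 647 ± 1097, 234 ± 360 and 126 ± 193 CPM. P1 was 5.13-fold lower than E9.5 (log2 ratio -2.36, SD 0.41 over 2 combinations), or -1.15 on the log2 scale where cells needed 3000 genes, and E12.5 was 2.76-fold lower than E9.5 (-1.47, SD 0.90 over 4). The E12.5 value depended on the set: C cells averaged 161 CPM and N523 cells 441 CPM, close to the 486 CPM of the E9.5 C cells, and pooling counts over cells in place of averaging them also ended that call. P1 against E12.5 was not called (-0.89), but was under 6 of the alternatives, at -1.05 to -1.54. Among P1 cells the highest Mef2c value was in the cell with the endothelial genes.

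Hand1, a factor of the left ventricle and outer curvature, was found in 20 of 42 unthinned E9.5 cells, with a lowest, median and highest value of 0, 0 and 284 CPM. At E12.5, 7 of 29 cells had it, from 0 over 0 to 486 CPM. All 41 P1 cells were at 0. The means at E9.5 and E12.5 were alike, 33.2 ± 67.0 and 33.7 ± 99.3 CPM, yet at E12.5 the 8 N523 cells averaged 111 CPM and the 20 C cells 4.26 CPM, and 1 cell supplied 49.8% of the sum. P1 was at least 67.3-fold lower than E9.5 (log2 ratio -6.07), a bound at 3 counts over the group. The bound was -5.23 where cells needed 1000 genes and -5.16 where they needed 3000. Within the C cells alone the level was already lower at E12.5 than at E9.5 (log2 ratio -3.35).

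Hand2, which is prominent in the right ventricle and outflow tract, was called in no comparison over all cells, and among C cells alone was higher at E12.5 than at E9.5 (log2 ratio 1.24). Its lowest, median and highest values were 0, 1.13 and 178 CPM at E9.5, 0, 2.65 and 166 at E12.5 and 0, 0 and 184 at P1, and its means were 16.9 ± 33.8, 24.3 ± 41.7 and 17.8 ± 38.9 CPM. None of the 3 ratios passed 2-fold. The paralogues differed at P1, where Hand2 was in 14 of 38 thinned cells and Hand1 in 0. At E9.5 both were found in 5 of 42 cells, Hand1 alone in 12 and Hand2 alone in 9.

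Isl1, the progenitor factor, was the rarest at E9.5, in 9 of 42 unthinned cells, with a lowest, median and highest value of 0, 0 and 775 CPM. At E12.5, 2 of 29 cells had it, at up to 130 CPM, and all 41 P1 cells were at 0. The means were 34.2 ± 124, 5.94 ± 25.1 and 0 CPM. One E9.5 cell gave 53.9% of the E9.5 sum and 1 E12.5 cell 75.6% of the E12.5 sum. E12.5 was 5.77-fold lower than E9.5 (log2 ratio -2.53, SD 1.68 over 4 combinations) and P1 at least 69.4-fold lower. Without the highest cells these log2 ratios were -3.43 and, as a bound, -5.03. The lower call at P1 against E12.5 rested on the single highest cell and was lost without it, at a log2 ratio of -1.60 that is itself a bound.

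**Figure D4:**
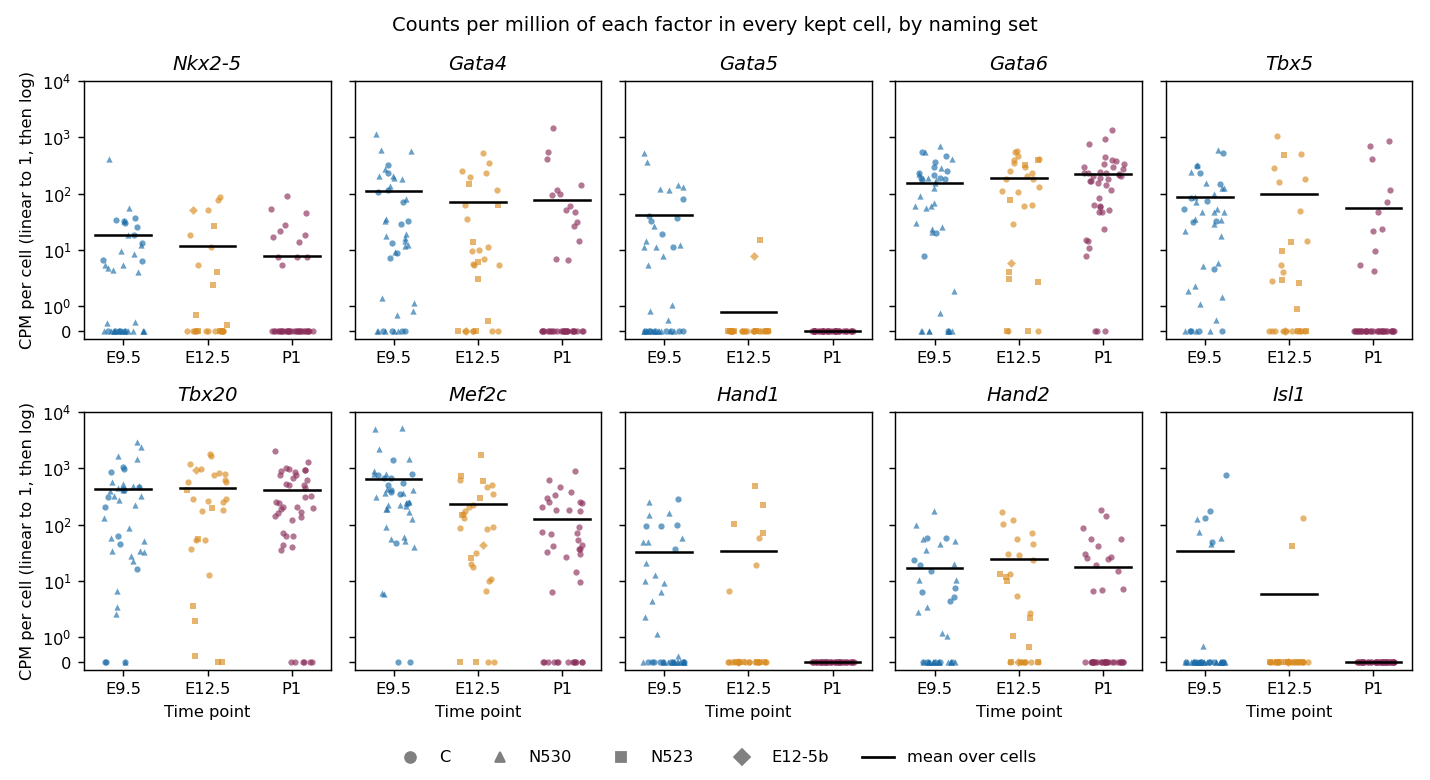
CPM of each factor in every kept cell (vertical axis, linear to 1 and logarithmic above) at E9.5, E12.5 and P1, with 1 symbol per cell shaped by naming set and a black line at the mean over cells. The P1 points of Gata5, Hand1 and Isl1 all lie at 0, while those of Gata6 and Tbx20 cover the range of the embryonic cells.

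Per length, as mean TPM (transcripts per 1000000) over cells, the levels of the factors were ordered at E9.5 as Mef2c (218), Tbx20 (145), Gata6 (102), Gata4 (73.3), Tbx5 (48.6), Hand1 (36.6), Isl1 (28.1), Nkx2-5 (27.5), Gata5 (27.0) and Hand2 (16.8). At E12.5 Tbx20 (126 TPM) led, followed by Gata6 (108), Mef2c (63.2), Tbx5 (46.3), Gata4 (39.7), Hand1 (29.5), Hand2 (20.0), Nkx2-5 (15.1), Isl1 (4.34) and Gata5 (0.45). At P1 the order was Gata6 (114 TPM), Tbx20 (99.0), Gata4 (37.8), Mef2c (33.5), Tbx5 (22.3), Hand2 (12.7) and Nkx2-5 (8.38), with Gata5, Hand1 and Isl1 at 0. No pair of neighbours in these orders differed by more than the SD over cells. The naming sets kept the order of Mef2c over Tbx20 and of Tbx5 over Hand1 at E9.5, and split on the other 7 neighbours there. At E12.5 they kept Tbx5 over Gata4, Nkx2-5 over Isl1 and Isl1 over Gata5. They split on all other E12.5 neighbours, the leading Tbx20 and Gata6 included. By these means Mef2c had rank 1 of the 10 at E9.5 and rank 4 at P1, and Gata6 rank 3 and rank 1. At P1, however, Mef2c was above Gata4 in 25 cells and below it in 10, and the highest Gata4 cell reached 771 TPM. Among E9.5 C cells Gata6 had rank 2.

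**Figure D5:**
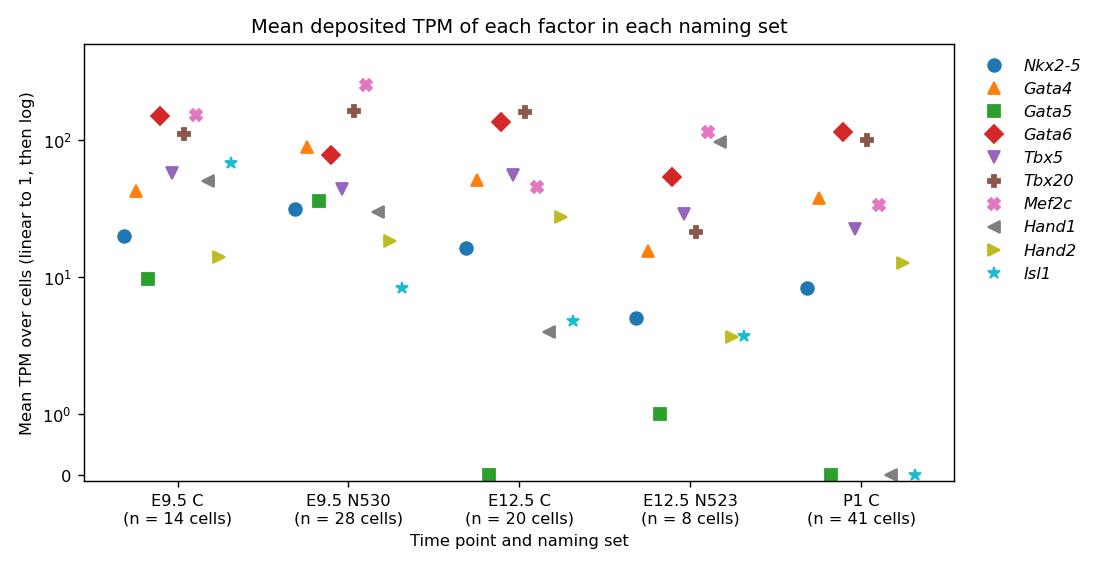
Mean deposited TPM over cells (vertical axis, linear to 1 and logarithmic above) of each factor in the E9.5 sets C (n = 14 cells) and N530 (n = 28), the E12.5 sets C (n = 20) and N523 (n = 8) and the P1 set C (n = 41). Hand1 and Tbx20 change places between the E12.5 sets, at 3.95 and 159 TPM in C and 96.9 and 21.3 TPM in N523.

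The factors were next followed as combinations within cells. Gata4, Mef2c and Tbx5 were found together in 20 of 42 E9.5 cells (47.6%, exact interval 32 to 63.6%), 7 of 29 E12.5 cells (24.1%, 10.3 to 43.5%) and 2 of 38 P1 cells (5.26%, 0.64 to 17.7%). The E9.5 sets were alike in this, at 6 of 14 C cells and 14 of 28 N530 cells. Without thinning the E9.5 share was 71.4%, and when 2 counts were required the E12.5 share was 6.90%. With Hand2 added, the count was 7, 3 and 0 cells. In contrast, Tbx20, Gata6 and Mef2c occurred together in 57.1%, 58.6% and 55.3% of cells, although the E12.5 value joins 15 of 20 C cells with 1 of 8 N523 cells. Nkx2-5, Gata4 and Tbx5 shared 7 E9.5 cells, 3 E12.5 cells and no P1 cell.

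No single combination dominated. The 42 E9.5 cells showed 36 different sets of factors, the 29 E12.5 cells 24 and the 38 P1 cells 22. The commonest at E9.5 was Gata4, Gata6, Tbx5, Tbx20 and Mef2c, in 3 cells, and the commonest at P1 was Gata6 with Tbx20 alone, in 4 cells. Across the 45 pairs of factors, Spearman rho of CPM over cells had a median of 0.13 at E9.5 (from -0.32 for Gata4 and Mef2c to 0.51 for Hand2 and Isl1) and of 0.05 at E12.5 (-0.34 to 0.46). At P1 it was -0.07 over the 21 pairs with counts (-0.26 to 0.44, the latter for Tbx5 and Tbx20). Such values over sparse counts from shared libraries describe these cells only. Gata4 and Mef2c, at the low end, were both found in 24 of 42 E9.5 cells, where the product of their shares gives 24.1.

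The genes whose thinned counts over the 42 E9.5 cells were most like each factor, among 5739 genes found in 10 or more of them, were listed by Spearman rho. Nkx2-5 was closest to Tmod1 (0.57), which caps sarcomeric actin filaments, Bex1 (0.57) and Dnaja3 (0.57). Gata4 was closest to Ier5 (0.59), Atp11a (0.55) and Snhg7 (0.50), and Gata5 to Surf1 (0.56), Ik (0.50) and Dnajc13 (0.50). Gata6 was closest to Lamtor3 (0.58), Yme1l1 (0.58) and the histone gene H3f3a (0.55). Tbx5 was closest to Rbm24 (0.54), a muscle RNA-binding protein, Golga4 (0.54) and Gatm (0.53), and Tbx20 to Frmd4b (0.54), Tmem201 (0.54) and Gnao1 (0.51). Mef2c was closest to Vezt (0.45), Mbnl1 (0.42) and Dcdc2b (0.41), the weakest of these lists. Hand1 was closest to Aldh18a1 (0.60), Itgb1bp2 (0.60) and Ndufaf1 (0.55), and Hand2 to Xpot (0.61), Atp2b4 (0.61) and Igbp1 (0.61). Isl1 was found in too few cells to be ranked. Some values came from 1 naming set: Gata5 with Dnajc13 had 0 over the 14 C cells and 0.69 over the 28 N530 cells, and Mef2c with Mbnl1 had -0.0022 and 0.51. No other factor of the 10 was on any of these lists, and the largest of 5739 values is high by selection.

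Among 15 cofactors and partners of these proteins, 14 were tested. From E9.5 to E12.5, 4 were called lower and 2 higher, from E12.5 to P1 2 and 2, and from E9.5 to P1 4 and 1. As shares of the 14 these were 28.6% and 14.3%, 14.3% and 14.3%, and 28.6% and 7.14%, beside 16.1% and 7.34%, 18.1% and 15.8%, and 30.8% and 15.7% over all genes. Myocd, the coactivator of serum response factor in heart muscle, was at 266, 264 and 263 CPM, and Hopx, a homeodomain-only protein, was at 84.5, 177 and 350 CPM. Smyd1, a muscle methyltransferase, went from 319 over 144 to 124 CPM, and Meis1 from 318 over 159 to 125 CPM. Among C cells alone Smyd1 was at 173, 149 and 124 CPM. Hey1, an atrial Notch effector, was at 14.5, 0.09 and 0 CPM, with 1.46 CPM in the E9.5 C cells and 21.0 CPM in N530.

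Of 12 relatives in the same families, 7 were tested, and 1, 1 and 2 were called lower and 0, 1 and 2 higher in the same 3 comparisons. With 7 genes, 1 call is 14.3%, so these counts were within 1 gene of the shares over all genes. Tbx3, a T-box repressor of the conduction system, was at 36.2 and 46.6 CPM in the embryo and at 0 in all P1 cells, as Gata5, Hand1 and Isl1 were. Tbx2, its close relative, was at 8.57, 0.09 and 0.39 CPM. Mef2a was called higher at P1, at 55.8, 43.6 and 141 CPM, where Mef2c was called lower than at E9.5. Tbx18 was at 20.5, 80.5 and 19.8 CPM and Mef2d at 2.27, 4.42 and 5.83 CPM.

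Of 10 genes known as direct targets of these factors, 9 were tested, and 5, 0 and 2 were called lower and 1, 5 and 3 higher. The 5 lower calls at E12.5 against E9.5 were 55.6% of the 9, beside 16.1% of all genes, and the 5 higher calls at P1 against E12.5 were 55.6%, beside 15.8%. Among C cells alone Myh6 and Slc8a1, 2 of those 5 lower genes, were less than 2-fold apart at E9.5 and E12.5. Of the 5 higher genes, Nppa (8732 CPM at P1, SD 26190) and Gja5 (66.3 CPM) were less than 2-fold above the N523 cells. Those cells were at 8000 and 58.0 CPM. Myl2, Myh6 and Bmp10 were more than 2-fold above both E12.5 sets. From E9.5 to P1 the shares were 22.2% lower and 33.3% higher, beside 30.8% and 15.7%. Myl2, the ventricular myosin light chain, was called higher at both steps, at 655, 2446 and 6373 CPM. Myh6, the gene whose promoter drives the reporter, was at 7294 ± 6014, 1605 ± 1778 and 11010 ± 4011 CPM. Its E9.5 level differed between C cells (2646 CPM) and N530 cells (9618 CPM), so that against the 1636 CPM of the E12.5 C cells the step within set C was smaller. Actc1, cardiac actin, was at 13900, 16977 and 25221 CPM, and Nppa, the atrial natriuretic peptide, at 1572, 2236 and 8732 CPM. The embryonic sets were far apart in Nppa, at 471 CPM in the E9.5 C cells, 2123 in N530, 42.2 in the E12.5 C cells and 8000 in N523. Bmp10, a trabecular growth factor, was at 16.1, 2.13 and 29.5 CPM. Fgf10, a growth factor of the second heart field, was at 54, 2.41 and 0 CPM, and was called lower at E12.5 and at P1 than at E9.5.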

How the data were processed

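Single αMHC-GFP cells were profiled by SMART-Seq V4 on Fluidigm C1 chips with 75-base single-end reads. The authors mapped reads with OLego, counted them per gene with featureCounts (GRCm38/mm10, per the labels) and deposited whole-number counts and TPM values, which the authors made with scripts of their own. The deposited TPM values are linear. The strand setting and annotation are not given in the sources used here. Embryonic hearts were digested with collagenase and P1 hearts with Liberase, which cannot be told apart from age.

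Here, counts were scaled to CPM by each cell's total, cells under 2000 genes were left out, and shares were taken from cells thinned without replacement to 100000 counts (Python 3.11.15, numpy 2.4.6, seed 1). Shares have exact binomial intervals at 95%. Genes found in 3 or more cells were compared. All gene calls follow the 2-fold rule with a floor of 3 counts, which was tried on simulated data. Those data were Poisson counts around a shared mean profile, with some genes lowered at P1. They held no further spread between cells or naming sets, so they cannot show how the rule behaves with such spread. Levels across genes use TPM. Named genes were all factors, and of each other list the 4 with the highest mean TPM, those called at 8-fold or more and, per factor, the 3 most correlated genes. One gene that this rule names is not reported here. TMM factors came from edgeR 4.0.16 and size factors from DESeq2 1.42.0. The factors, lists and thresholds were chosen with earlier results of these data known. Alternatives covered cell filters, thinning, scaling and naming sets.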

Additional observations from a re-analysis of the deposited data

Results flagged for a closer look

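Signal was present in cells that the comparisons left out. The 11 P1 cells with 1091 to 1985 genes held, over their summed counts, Nkx2-5 at 5.59 CPM, Gata4 at 19.6 CPM, Gata6 at 85.3 CPM, Tbx20 at 176 CPM, Mef2c at 196 CPM and Hand2 at 19.6 CPM, each above the 4.2 CPM that 3 counts are worth there. Tbx5, with 3 counts in 2 cells, was at that level. Nkx2-5 rested on 4 counts, with an exact Poisson interval of 1.52 to 14.3 CPM that treats amplified reads as independent. Gata5, Hand1 and Isl1 had no count in these 11 cells either.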

How the results depend on the processing

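The minimum cardiomyocyte gene level, the values without C cells and all alternatives for combinations of factors were chosen after seeing the data. The mean number of factors per cell moved by less than its SD over cells under every alternative run. That limit is wide, since each step between time points was also smaller than 1 SD. In order of age the mean number lay between 4.31 and 6.55, 3.44 and 5.34, and 3.00 and 3.94. The order of the 3 time points held in every setting that had all of them. Gata4, Mef2c and Tbx5 together were in 71.4% of E9.5 cells without thinning and in 6.90% of E12.5 cells when 2 counts were required. Of the 10 called ratios, none changed direction in 130 recalculations, and 119 kept their call. The direction was fixed where P1 had no count, as for Gata5, Hand1 and Isl1. It was also fixed among C cells alone, because a call needs the same direction in every set combination. The calls lost were Mef2c (E12.5 against E9.5) with pooled CPM, TMM and DESeq2, Nkx2-5 (P1 against E9.5) among C cells alone, with DESeq2 and without the highest cell, Hand1 (P1 against E12.5) among C cells alone, and Isl1 (P1 against E12.5) without titles ending in no, with pooled CPM, with TPM and without the highest cell. For Hand1 among C cells the log2 ratio was still -3.11, and for Isl1 -2.96 with pooled CPM and -3.45 with TPM. These are bounds, and the E12.5 level there was under the limit of 5. Calls gained between E9.5 and P1 were Gata4 with 3000 genes per cell and without the highest cell. Tbx5 was gained with TPM, without the highest cell and at 1.5-fold. Mef2c was called lower at P1 than at E12.5 under 6 alternatives besides the 1.5-fold limit, Nkx2-5 at E12.5 than at E9.5 with pooled CPM and with the mean over naming sets, and Gata4 at E12.5 than at E9.5 without titles ending in no. Between E12.5 and P1, 4 factors were lower with 3000 genes per cell, with TMM factors and at 1.5-fold, 1 was lower without the cell with the highest CPM, and 2 (Gata4 and Gata6) were higher with pooled CPM. Hand2 was the 1 factor called higher at E12.5 than at E9.5 among C cells alone. With median in place of mean TPM, 3, 1 and 2 factors kept their rank in order of age. Cells titled C and the others gave different shares at E12.5: Tbx20 was in 100% and 55.6%, Gata6 in 90% and 44.4%, and the cause was not tested. Without C cells no P1 cell is left, so only the C cells compare P1 with the embryo within 1 naming set, and there 4 of the 5 lower calls against E9.5 held. P1 cells had the fewest counts, and a factor at a few CPM could go unseen in them. No paired analysis was possible because no label pairs cells between time points and no test was made.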
